A study of Danio rerio with 16 samples.

Results

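Among 31351 genes counted in zebrafish ventricles, 134 genes with an established symbol were higher in nr4a1 mutants than in wild type at each of 4 stages of heart injury. They were selected on these measured values. The mean level over the 16 samples had to be at least 0.5 in CPM, the count of a gene divided by the total of its sample and multiplied by 1000000. The ratio of the mutant to the wild-type mean, with 0.1 CPM added to each, had to be at least 1.41 at every stage. This gave 275 genes, and leaving out acod1 and every symbol with a colon or a dot (141 in all), most of them names of clones or numbered copies, left the 134 members. All 134 also passed the filter on low counts, as did 18949 genes of the whole table. Because the choice used the genotype difference at every stage, that difference and its variation over stages are given as a description, untested. Tests are kept for the change between stages within a genotype and for genes outside the choice. The stage means of each genotype entered the ratios, so the tests between stages are not independent of the choice.

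The ventricles came from adult fish and were either uninjured (0 dpi in the labels) or taken 2, 7 or 21 days after cryoinjury (days post-cryoinjury, dpci), an injury made by touching the apex with a probe cooled in liquid nitrogen. Wild-type fish were compared with nr4a1 mutants of the nc40 line, which carry a single-base insertion in exon 2 that CRISPR editing left behind and that brings in an early stop codon. There were 2 samples in each of the 8 conditions. The mutant is 1 allele in the whole animal, so every cell type carried it, and the number of fish behind a sample was not stated, so p-values below measure only the spread between samples, which may be technical.

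Nr4a1 (Nur77) is an orphan nuclear receptor encoded by an immediate-early gene. In mouse macrophages it restrains inflammatory gene expression, and it also acts on metabolism and cell survival. Cryoinjury kills a patch of the ventricle, after which neutrophils and macrophages enter, a temporary scar forms and, in zebrafish, heart muscle regrows. The interferon response, the immunoproteasome and phagocyte genes, all with members here, are known as parts of inflammation.

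Counts assigned to genes ranged from 14333475 to 27668498 a sample, and the spread between samples of a condition was small (common biological coefficient of variation 3.42%). Summed over the 8 cardiomyocyte markers in the table, the level was between 32990 and 46680 CPM in every sample, as heart muscle should show. Germ cell markers summed to at most 0.762 CPM. The nr4a1 transcript itself was not lower in mutants throughout. Its mean was 55.8 CPM in mutants and 20.7 in wild type at 0 dpci, 83.6 and 86.1 at 2 dpci, 135 and 216 at 7 dpci, and 168 and 139 at 21 dpci. The level of this transcript is thus no check of the insertion. Levels below are CPM scaled with TMM factors (0.852 to 1.17), which assume that most genes do not differ. Scaling by column totals alone, as the choice of members did, moved the median log2 change of all genes by 0.38 and 0.39 from 0 to 2 dpci in wild type and mutants, and by -0.34 and -0.20 from 7 to 21 dpci. The shift was 0.11 from 0 to 21 dpci in mutants and 0.17 between genotypes at 21 dpci, and under 0.1 in size in the other comparisons.

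On the TMM scale the members' median log2 fold change of mutants over wild type was 1.20 at 0 dpci, 0.89 at 2 dpci, 0.99 at 7 dpci and 1.13 at 21 dpci. Over all genes tested the medians lay between 0.00 and 0.02. At 0 dpci 117 members passed the thresholds (adjusted p under 0.05 and a log2 fold change over 0.5) as higher, where 11.9% of all genes tested did and 11.8% were lower. The counts were 101 at 2 dpci (8.35% of all genes higher, 8.5% lower), 104 at 7 dpci (7.03% and 5.94%) and 96 at 21 dpci (9.49% and 6.83%), and no member passed as lower at any stage. These counts follow from the choice and nothing is read from them. In bulk tissue, more cells of a type and more RNA per cell cannot be told apart. 65 members passed at all 4 stages, as did 132 of all genes tested, and 69 members passed the ratio but not this stricter call at 1 or more stages. In 127 members both mutant samples lay above both wild-type samples at every stage (6.54% of all genes tested did so). For 28 members every mutant sample lay above every wild-type sample whatever the stage (0.544% of all genes tested), among them atp1a3a, cdh29, irf1b, mxf, psmb8a, psmb9a, ptgr1, nup54 and plgrkt.

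The members just inside the ratio were tnfrsf11b (lowest ratio 1.412, at 2 dpci), sting1 (1.416, at 2 dpci) and cyp2aa2 (1.417, at 2 dpci). Just outside lay cyp2ad6 (1.406, at 21 dpci), anos1b (1.405, at 0 dpci) and il11a (1.404, at 7 dpci), whose other 3 ratios were 6.52, 3.12 and 3.82. The median of the members' lowest ratios was 1.61, 19 members held a ratio of 2 or more at every stage, and 44 had a lowest ratio under 1.5. Most members were low to moderate in level: the mean over all samples ran from 0.515 to 166 CPM with a median of 3.26, and 49 lay under 2 CPM.

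**Figure D1:**
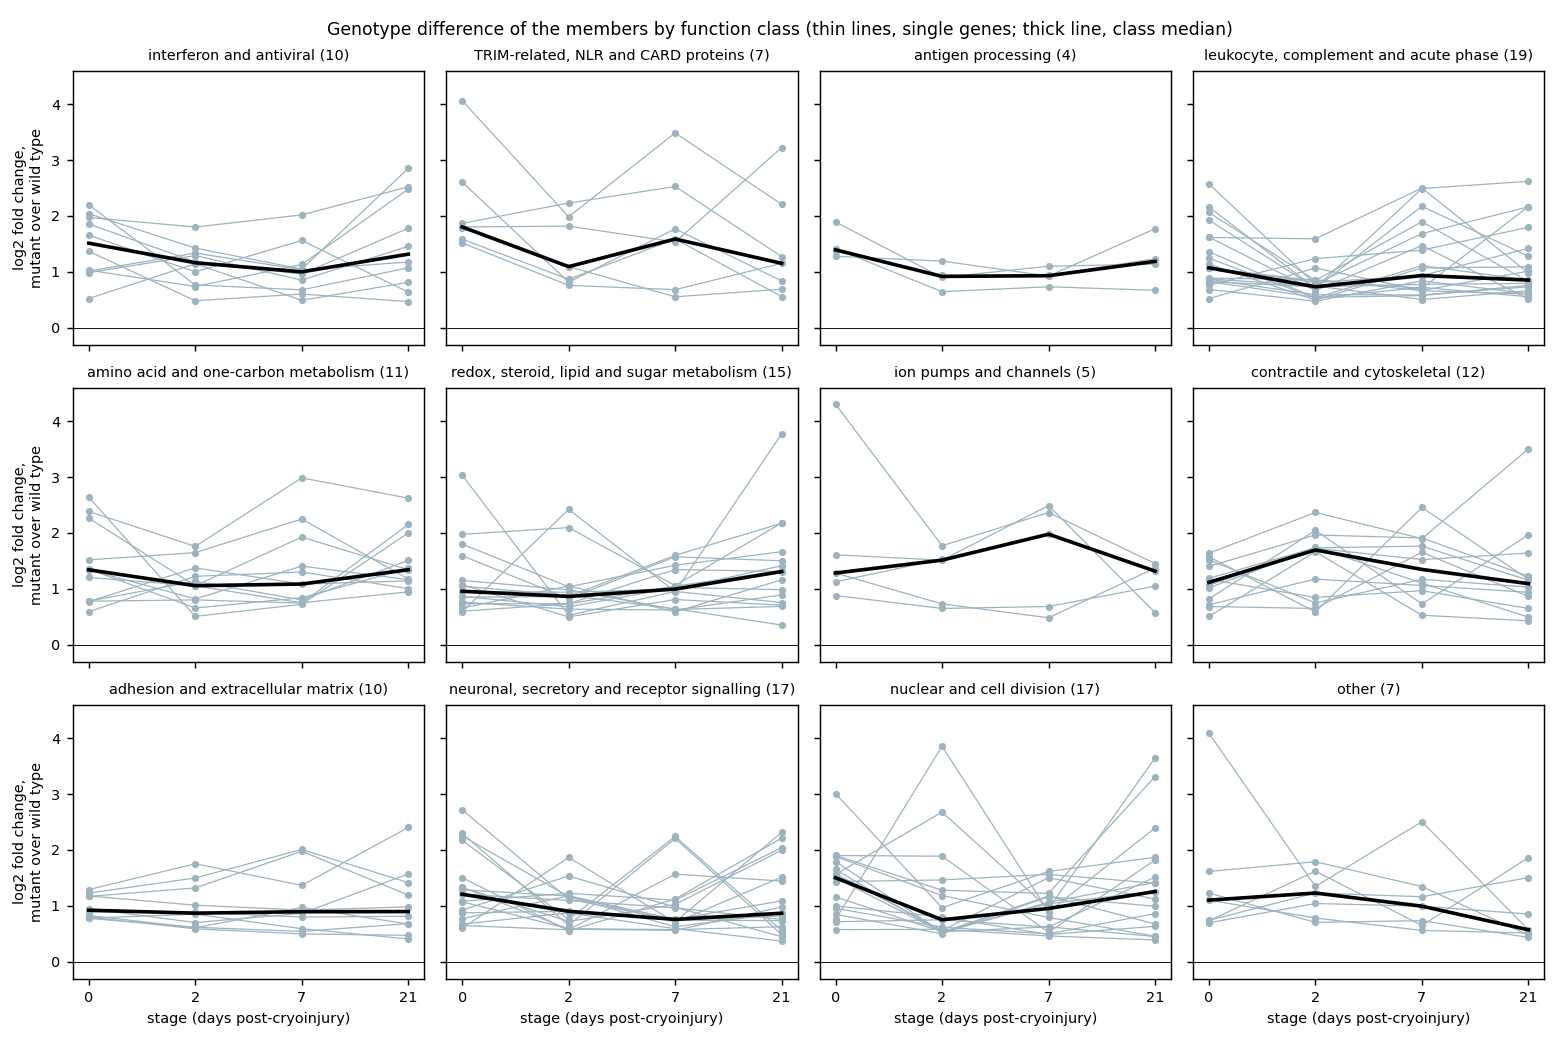
Log2 fold change of nr4a1 mutants over wild type (vertical axis) at the 4 stages, evenly spaced on the horizontal axis, for the 134 members in 12 function classes. Thin lines are single genes and the thick line is the class median. Every point lies above 0 because the members were selected on this difference, the class medians lie between 0.57 and 1.98, and the highest single value is atp1a3a at 0 dpci (4.3).

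The choice set no condition on the change between stages within a genotype, but the stage means it used came from the same samples. The shares below are therefore a description. The quasi-likelihood test of edgeR on all 18949 genes was used, with the same thresholds. In wild type 59 of 134 members rose from 0 to 2 dpci (44.0%, against 22.9% of all genes tested) and 29 fell (21.6% against 19%). Fewer moved between 2 and 7 dpci, when 22 rose (12.4% of all genes did) and 23 fell (11%). The last step, to 21 dpci, was upward for 23 (16.6%) and downward for 53 (39.6%, against 20.5%). Across the whole interval from 0 to 21 dpci, 24 members rose (13.4%) and 18 fell (10%). Without sample 2 of wild type at 21 dpci the last count was 11.

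The course in mutants was alike only in part. The members' median log2 change from 0 to 2 dpci was 0.49 in wild type and -0.01 in mutants. From 7 to 21 dpci it was -0.54 and -0.30. Over all genes tested these medians lay between -0.01 and 0.02. In mutants 55 members rose from 0 to 2 dpci (41.0%, against 24.4% of all genes) and 39 fell (29.1% against 20.8%). The next step, to 7 dpci, was a rise for 27 (11.4% of all genes) and a fall for 20 (10.5%). By 21 dpci 12 members had risen above their level at 7 dpci (12.8%) and 52 had dropped below it (38.8% against 17%). Between 0 and 21 dpci 12 rose (13.1%) and 12 fell (6.92%). With column totals in place of TMM factors, a choice made after the data were seen, the split of higher and lower calls shifted. In mutants it was 59 higher and 24 lower for 0 to 2 dpci and 4 and 59 for 7 to 21 dpci. For 0 to 21 dpci it was 19 and 11. In wild type it was 12 and 70 for 7 to 21 dpci. That scaling moved the median of all genes in these contrasts too, by 0.39, -0.20 and 0.11 in mutants and -0.34 in wild type. The shares of all genes under it are not given, so a shift particular to the members is not shown. Of the members, 50 rose in both genotypes from 0 to 2 dpci and 24 fell in both, while osbpl6 and slc35f3a passed in opposite directions. That opposition did not hold under column totals for osbpl6 or with DESeq2 for slc35f3a. The change from 7 to 21 dpci was a fall in both genotypes for 42 members. The shares of all genes that passed in both genotypes are not given, so nothing particular to the members is read from these joint counts.

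**Figure D2:**
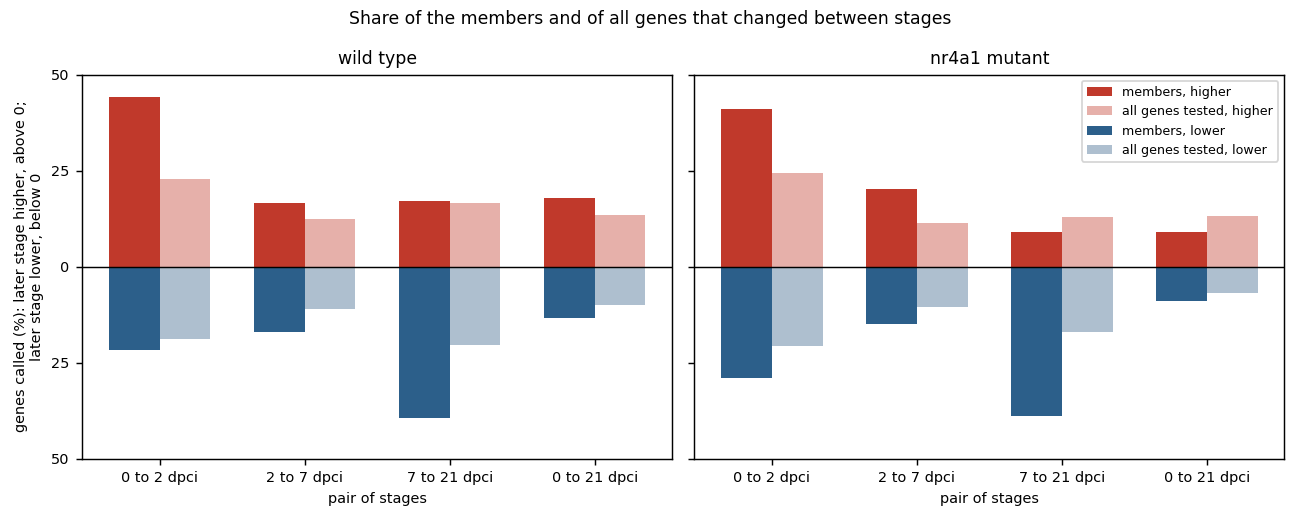
Share of the 134 members (dark bars) and of all 18949 genes tested (light bars) that passed the test between 2 stages, in wild type and in mutants. Bars above 0 are genes higher at the later stage and bars below 0 genes lower at it. The stage means also entered the choice of members, so the shares are a description. The members stand furthest from all genes in the rise from 0 to 2 dpci (44.0% against 22.9% in wild type) and the fall from 7 to 21 dpci (39.6% against 20.5%).

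In wild type a rise by 2 dpci, no call from 2 to 7 dpci and a fall by 21 dpci was the course of the largest number of members with any such call, 24 (17.9%, against 6.62% of all genes tested). A rise followed by 2 falls was found in 15 members (11.2%, against 4.06%). More members, 30, passed in no step between neighbouring stages (22.4%, against 39.4%), and 13 members passed in no contrast between stages in either genotype. The stage of the highest mean was the same in both genotypes for 79 members. In wild type it was 0, 2, 7 and 21 dpci for 26, 46, 30 and 32 members (19.4%, 34.3%, 22.4% and 23.9%, against 23.6%, 29.4%, 19.5% and 27.6% of all genes tested). In mutants the numbers were 43, 39, 32 and 20 (32.1%, 29.1%, 23.9% and 14.9%, against 26.8%, 31.3%, 16.1% and 25.9%). The order of stages within a genotype enters the ratios that chose the members, so these shares are a description. For the 13 members with no call and the 79 with a shared stage, the shares of all genes are not given. Nothing particular to the members is read from those counts.

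**Figure D3:**
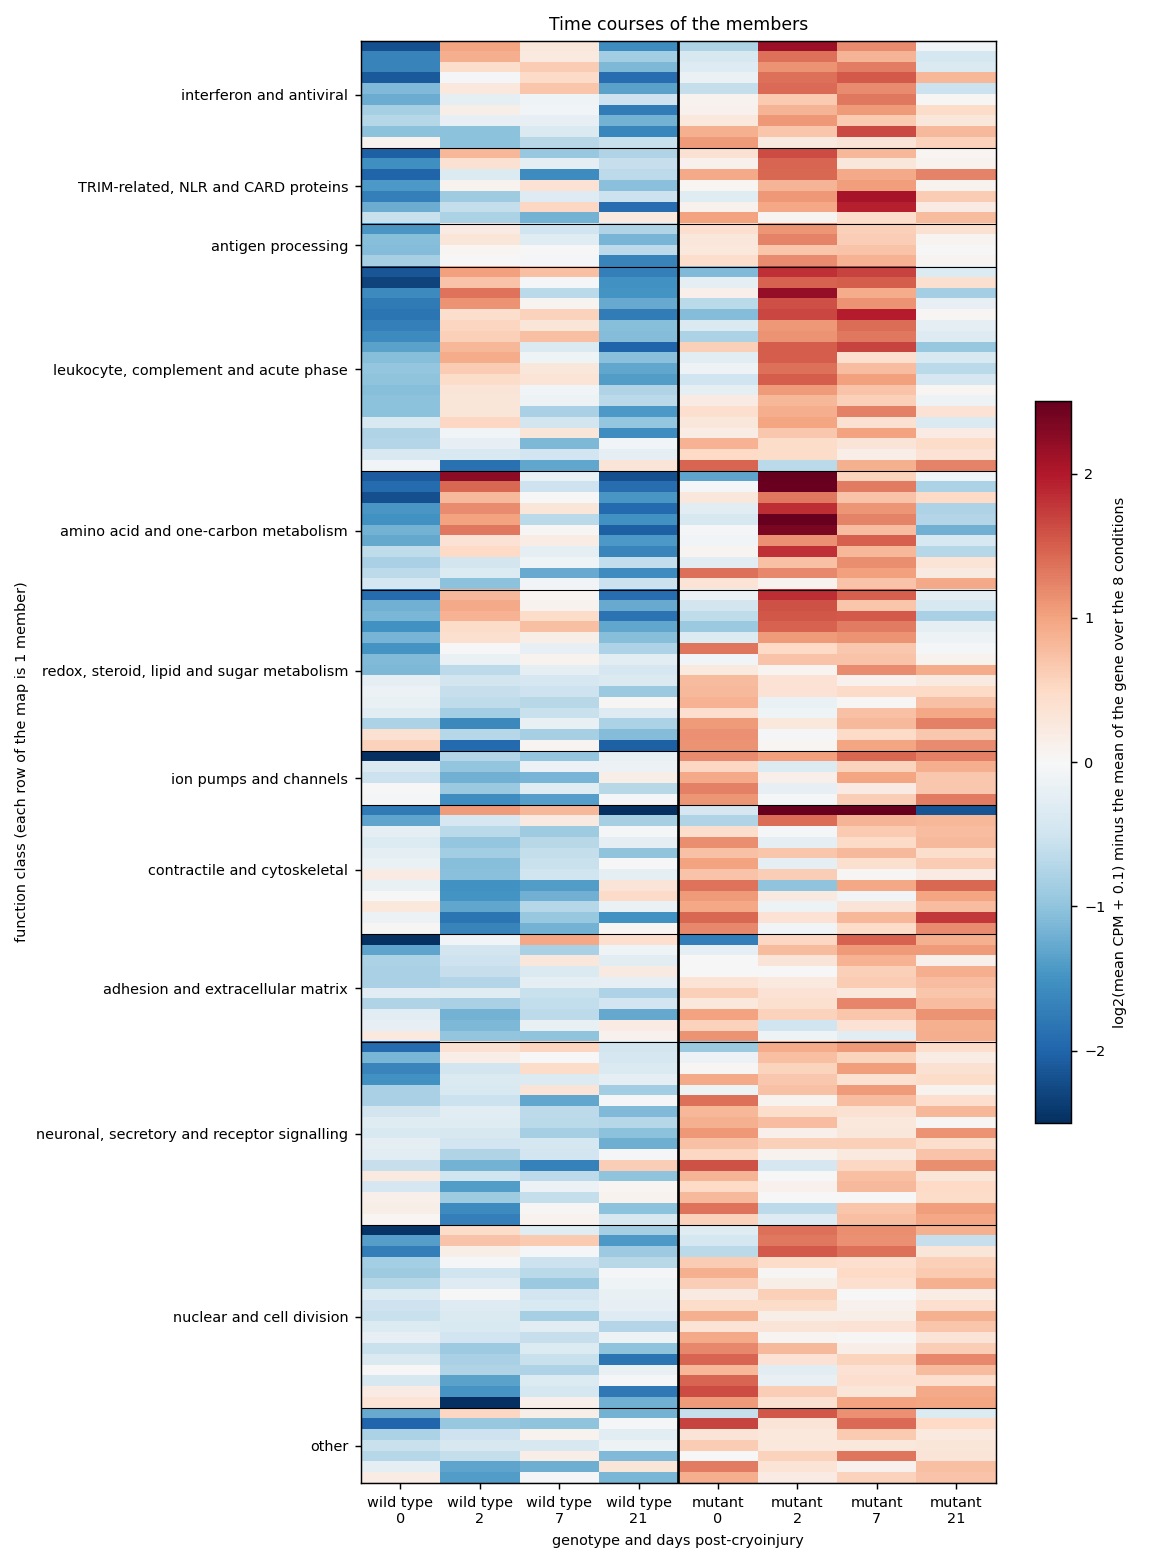
Time courses of the 134 members, each a thin horizontal band, grouped by function class and, within a class, ordered by the change from 0 to 2 dpci in wild type. Colour gives log2(mean CPM + 0.1) of a condition minus the mean of that gene over the 8 conditions. At each stage the mutant column is redder because of how the members were selected. Within a genotype most immune and amino acid genes are highest at 2 or 7 dpci and most contractile genes are lowest at 2 dpci.

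Genes of the interferon and antiviral response formed a class of 10 members. Interferons signal through STAT proteins and interferon regulatory factors to switch on effectors such as the Mx GTPases, while SOCS proteins damp the signal. The class median of the log2 fold change was 1.51, 1.16, 1.0 and 1.32 at the 4 stages. After injury 7 of the 10 rose by 2 dpci in wild type and 7 in mutants (22.9% and 24.4% of all genes tested), and 8 and 7 fell from 7 to 21 dpci (20.5% and 17%). The one that fell from 0 to 2 dpci in both genotypes was SAMD9, an antiviral restriction factor in human cells, though not without sample 1 at 2 dpci of either genotype nor, in mutants, under column totals. The other members were mxc and mxd, ifit9, of a family that binds viral RNA, sting1, the adaptor of cytosolic DNA sensing, and socs1b, an inhibitor of cytokine signalling. Of these, mxc, ifit9, sting1 and socs1b rose by 2 dpci in both genotypes, the call for socs1b in mutants being lost with DESeq2 and without any one of 3 samples, and mxd passed only as lower at 21 dpci than at 7 dpci, in mutants, and not without sample 2 at either stage. Of the 18 other genes of an interferon list that were tested (isg15, stat1a, irf7 and the like), 1, 3, 0 and 10 passed as higher and 3, 2, 4 and 0 as lower in mutants at 0, 2, 7 and 21 dpci. Their median log2 fold changes were 0.04, 0.11, -0.20 and 0.70. Of all genes tested, 11.9%, 8.35%, 7.03% and 9.49% passed as higher at the 4 stages, and 11.8%, 8.5%, 5.94% and 6.83% as lower. These shares are also the background for the gene and marker lists below.

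irf1b, which encodes an interferon regulatory factor, was read in wild type at 37.9 and 37.2 CPM uninjured, 51.4 and 56 at 2 dpci, 55.5 and 52 at 7 dpci and 28.4 and 25.9 at 21 dpci. In mutants irf1b was read at 76.7 and 72.3 CPM uninjured, 135 and 128 at 2 dpci, 100 and 93.2 at 7 dpci and 70.7 and 78.7 at 21 dpci. The mutant samples were above the wild-type samples of every stage, with log2 fold changes of 0.99, 1.29, 0.85 and 1.46 at 0, 2, 7 and 21 dpci (SE 0.06 to 0.07). Its fall from 7 to 21 dpci in wild type (log2 change -0.98, SE 0.07, adjusted p = 3.30e-21) was under the fold threshold in mutants (log2 change -0.37, SE 0.06, adjusted p = 2.27e-08). The rise from 0 to 2 dpci passed in mutants (log2 change 0.82, SE 0.05, adjusted p = 4.50e-23). It also passed in wild type (log2 change 0.52, SE 0.06, adjusted p = 3.44e-11), but not without sample 2 at 2 dpci (log2 change 0.47). mxf, a member of the Mx family of interferon-induced GTPases, stood in wild type at 1.53 and 1.8 CPM uninjured, 1.8 and 1.49 at 2 dpci, 2.25 and 3.11 at 7 dpci and 1.21 and 0.895 at 21 dpci. In mutants mxf stood at 6.36 and 6.72 CPM uninjured, 5.19 and 6.25 at 2 dpci, 11.2 and 10.9 at 7 dpci and 5.65 and 6.62 at 21 dpci, and no mutant sample came down to the highest wild-type sample. The level of mxf peaked at 7 dpci in both genotypes, and the rise from 2 to 7 dpci passed in mutants (log2 change 0.95, SE 0.17, adjusted p = 2.18e-06). In wild type that rise (log2 change 0.73, SE 0.25, adjusted p = 0.0137) was lost without sample 2 at 2 dpci or sample 2 at 7 dpci. Reads of mxc, mxd and mxf could be shared between such close copies, since the handling of reads with several matches was not stated, and the split between them is uncertain.

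irgf3 belongs to the immunity-related GTPases, which in mice attack the vacuoles of intracellular pathogens. Wild-type ventricles held irgf3 at 0.248 and 0.0856 CPM uninjured, 2.33 and 2.37 at 2 dpci, 1.48 and 1.3 at 7 dpci and 0.158 and 0.477 at 21 dpci. Mutant ventricles held irgf3 at 0.712 and 0.536 CPM uninjured, 5.19 and 5.45 at 2 dpci, 2.83 and 2.53 at 7 dpci and 1.29 and 0.86 at 21 dpci. The genotypes overlapped at no stage, and irgf3 was highest at 2 dpci in both genotypes, with a rise from 0 to 2 dpci of 3.75 in wild type and 3.08 in mutants on the log2 scale (adjusted p = 2.45e-11 and 1.59e-13). irgf3 was described in full for the size of its wild-type rise, so that rise is a description. socs3b, an inhibitor of JAK-STAT signalling downstream of interleukin 6 family cytokines, had the highest mean plain CPM of all members. Its wild-type samples gave 56.9 and 57.6 CPM uninjured, 147 and 152 at 2 dpci, 202 and 198 at 7 dpci and 49.7 and 47.5 at 21 dpci. The mutant samples of socs3b gave 84 and 80.5 CPM uninjured, 331 and 328 at 2 dpci, 278 and 285 at 7 dpci and 82.8 and 88.2 at 21 dpci. Both genotypes rose by 2 dpci and fell by 21 dpci, but the wild-type mean was highest at 7 dpci and the mutant mean at 2 dpci. For socs3b the log2 fold changes between genotypes were 0.52, 1.15, 0.49 and 0.81 at 0, 2, 7 and 21 dpci (SE 0.04 to 0.05). socs3b was described in full partly for how this difference varied, so the unlike courses are a description. Its partner socs3a, which the choice did not take in, was higher in mutants at 0, 2 and 21 dpci (log2 fold changes 0.88, 0.55 and 1.04, adjusted p = 3.26e-33, 3.61e-24 and 2.61e-40). At 7 dpci socs3a stood at -0.09 and did not pass.

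The 4 members of antigen processing were psmb8a, psmb9a and psmb12, catalytic beta subunits of the immunoproteasome or their close relative, and mhc1zja, a fish class I gene of the major histocompatibility complex, a family whose copies may share reads. The immunoproteasome replaces subunits of the standard proteasome in immune cells and under interferon, and cuts proteins into peptides for class I molecules. All 4 rose from 0 to 2 dpci in wild type and the 3 proteasome genes did so in mutants (22.9% and 24.4% of all genes tested). From 7 to 21 dpci 3 of the 4 fell in wild type and 3 in mutants (20.5% and 17%). In mutants mhc1zja and psmb12 lost the call of a fall without sample 1 at 21 dpci. In wild type mhc1zja lost it with DESeq2 and without any one of 3 samples. psmb8a was at 15 and 14.8 CPM uninjured, 48.3 and 46 at 2 dpci, 29.6 and 28.5 at 7 dpci and 23 and 25.8 at 21 dpci in wild type. In mutants psmb8a was at 51.4 and 59.4 CPM uninjured, 87.3 and 88.5 at 2 dpci, 61.6 and 62.8 at 7 dpci and 50.7 and 56.6 at 21 dpci. Uninjured mutant ventricles thus already held at least as much psmb8a as wild-type ventricles at their highest stage, 2 dpci. The rise by 2 dpci passed in wild type (log2 change 1.66, SE 0.08, adjusted p = 2.22e-31) and in mutants (log2 change 0.67, SE 0.06, adjusted p = 3.24e-16). The genotype difference was 1.89, 0.90, 1.1 and 1.14 at 0, 2, 7 and 21 dpci (SE 0.06 to 0.07) on the log2 scale. By gene order in the RefSeq table of another assembly (GRCz12tu), psmb12 lies directly beside both psmb8a and psmb9a, with no other tested gene between, so these members also share a place in the genome. Of 21 other tested genes of the MHC and antigen processing list, 2, 4, 0 and 7 passed as higher and 2, 3, 4 and 2 as lower at 0, 2, 7 and 21 dpci.

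The class of TRIM-related, NLR and CARD proteins had 7 members, with median log2 fold changes of 1.8, 1.09, 1.59 and 1.15. Fish carry large families of TRIM genes, among them the finTRIM genes (ftr43) and the bloodthirsty-related genes (btr07, btr29), and of NLR genes (nlrc8), and card9 encodes an adaptor of C-type lectin receptors. These families hold close copies, so the counts of single members are uncertain. 4 of the 7 rose from 0 to 2 dpci in wild type and 4 in mutants (22.9% and 24.4% of all genes tested). btr07 had the highest lowest ratio of all members and was nearly absent from wild type, at 0.0827 and 0.0428 CPM uninjured, 0.37 and 0.463 at 2 dpci, 0.237 and 0 at 7 dpci and 0.158 and 0.477 at 21 dpci. Mutant samples held btr07 at 1.09 and 1.22 CPM uninjured, 1.69 and 1.65 at 2 dpci, 1.5 and 0.823 at 7 dpci and 1.19 and 1.72 at 21 dpci, above the wild-type samples of every stage. At 0 dpci this rested on 3 reads in both wild-type samples together against 48 in mutants, a ratio of 18.3 with a 95% exact interval of 5.9 to 91.8 that covers counting error only. Wild-type btr07 passed as higher at 2 dpci than at 0 dpci (log2 change 2.61, SE 0.88, adjusted p = 0.00818), but not without sample 2 at 0 dpci. It passed as lower at 7 dpci than at 2 dpci (log2 change -2.0, SE 0.84, adjusted p = 0.0466), but not with DESeq2, without either sample at 2 dpci, or without sample 2 at 7 dpci (log2 change -0.84). Of the rest of the class, btr29 and ftr43 rose by 2 dpci and fell by 7 dpci in both genotypes (btr29 in wild type not with DESeq2, nor without sample 2 at 2 or at 7 dpci), card9 rose by 2 dpci and fell by 21 dpci in both, and nlrc8 rose from 7 to 21 dpci in wild type and fell from 0 to 2 dpci in mutants.

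trim101 and nwd1, a NACHT and WD repeat protein, had their highest mean at 7 dpci in both genotypes. trim101 was at 0.165 and 0.128 CPM uninjured, 0.423 and 0.257 at 2 dpci, 0.474 and 0.63 at 7 dpci and 0.685 and 0.239 at 21 dpci in wild type and passed no test there. In mutants trim101 was at 0.332 and 0.779 CPM uninjured, 1.63 and 1.6 at 2 dpci, 3.2 and 3.36 at 7 dpci and 0.743 and 1.57 at 21 dpci. The genotypes overlapped at no stage but came close at 21 dpci, where the lower mutant sample lay at 0.743 against 0.685 for the higher wild-type sample. Its fall from 7 to 21 dpci passed in mutants (log2 change -1.5, SE 0.37, adjusted p = 3.73e-04). nwd1 was at 0.248 and 0.0428 CPM uninjured, 0.264 and 0.308 at 2 dpci, 0.711 and 0.756 at 7 dpci and 0.0527 and 0.0597 at 21 dpci in wild type. In mutants nwd1 was at 0.617 and 0.438 CPM uninjured, 1.17 and 0.899 at 2 dpci, 1.91 and 2.41 at 7 dpci and 0.793 and 0.354 at 21 dpci. The peak at 7 dpci was followed by a fall in both genotypes (log2 change -3.58, SE 0.85, adjusted p = 2.37e-04 in wild type and log2 change -1.89, SE 0.46, adjusted p = 3.73e-04 in mutants). The wild-type level at 21 dpci was 2 reads over both samples, against 23 in mutants (ratio 10.3, 95% exact interval 2.54 to 90).

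The largest class, 19 members, was of genes of leukocytes, complement and the acute phase. Among them are cybb and ncf4, subunits of the phagocyte NADPH oxidase, which makes reactive oxygen, and gpr84 and hcar1-4, receptors for medium-chain fatty acids and for hydroxy acids. The class also held acp5a (tartrate-resistant acid phosphatase of osteoclasts and macrophages), selp (P-selectin, which slows leukocytes on vessel walls and platelets), saa (serum amyloid A) and tnfrsf11b (osteoprotegerin, a decoy receptor of the TNF family). 16 of the 19 rose from 0 to 2 dpci in wild type and 14 in mutants (22.9% and 24.4% of all genes tested), and 14 and 14 fell from 7 to 21 dpci (20.5% and 17%). Higher at 21 dpci than at 0 dpci were 2 in wild type (cybb and tmc8) and 2 in mutants (gpr84 and tnfaip2b), where 13.4% and 13.1% of all genes tested were. The median log2 fold change of the genotypes was 1.07, 0.73, 0.93 and 0.85. Wild-type cybb was at 8.31 and 8.26 CPM uninjured, 41.6 and 38 at 2 dpci, 36 and 31.4 at 7 dpci and 12 and 14.1 at 21 dpci. Mutant cybb was at 20.5 and 22.1 CPM uninjured, 59.7 and 55.5 at 2 dpci, 74.2 and 70.3 at 7 dpci and 22.8 and 24 at 21 dpci. The genotypes did not overlap at any stage. The mean of cybb was highest at 2 dpci in wild type and at 7 dpci in mutants. tnfaip2b, a gene induced by TNF in human endothelium, was at 3.6 and 3.47 CPM uninjured, 17.7 and 17.1 at 2 dpci, 19.6 and 18.8 at 7 dpci and 4.11 and 3.4 at 21 dpci in wild type. In mutants tnfaip2b was at 5.93 and 6.04 CPM uninjured, 40.6 and 41.3 at 2 dpci, 49.1 and 51.3 at 7 dpci and 13 and 13.3 at 21 dpci, with no overlap. It fell from 7 to 21 dpci in both genotypes, and mutants were still higher at 21 dpci than at 0 dpci (log2 change 1.13, SE 0.12, adjusted p = 6.15e-13). Wild type did not pass in that comparison (log2 change 0.10, SE 0.17, adjusted p = 0.686). Both genes were chosen for the text after their values were seen, as were the other members named outside the rule given with the processing.

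Of this class, masp1, a protease of the lectin pathway of complement, moved the other way and fell by 2 dpci in wild type (log2 change -2.23, SE 0.60, adjusted p = 9.75e-04), though not without sample 1 at 0 or at 2 dpci. It fell in mutants as well (log2 change -2.26, SE 0.41, adjusted p = 1.45e-06), and its samples overlapped between genotypes at 1 or more stages. plgrkt, a plasminogen receptor, passed no test between stages in either genotype, at 8.58 to 10.2 CPM in wild type and 13.6 to 17 in mutants (means of 2 samples). tmc8 rose from 0 to 2 dpci, fell by 7 dpci and rose again by 21 dpci in wild type, and passed no test between stages in mutants. The first of these calls was lost without sample 1 at 0 dpci or sample 2 at 2 dpci. Of members not yet described, ada2b (an adenosine deaminase of macrophages), aif1l (related to a macrophage actin-bundling protein), illr4 (a lectin receptor of zebrafish immune cells), pstpip2 (an adaptor of myeloid cells) and serpinb1l1 (related to an inhibitor of neutrophil proteases) rose by 2 dpci and fell by 21 dpci in mutants. The wild-type samples of ada2b, aif1l, pstpip2 and serpinb1l1 moved the same way, so that course was not particular to mutants. Wild-type serpinb1l1 was at 10.7 and 9.71 CPM uninjured, 26.31 and 25.45 at 2 dpci, 19.49 and 18.95 at 7 dpci and 13.66 and 12.35 at 21 dpci. Wild-type illr4 was also higher at 2 dpci than at 0 dpci, but its samples at 7 and 21 dpci overlapped. snx10a, a sorting nexin, passed as higher at 2 dpci than at 0 dpci in wild type, though not with DESeq2 or without any one of 3 samples, and lat, the T cell adaptor, fell from 7 to 21 dpci in wild type. Neither passed a test between stages in mutants, which does not show that the genotypes differed. Markers of the cells that express such genes also differed between genotypes, not all in 1 direction. Of 4 thrombocyte markers, 0, 0, 0 and 2 passed as higher in mutants at the 4 stages. As lower passed 2, 3, 1 and 0. Of 6 tested T and NK cell markers, 0, 1, 1 and 1 passed as higher and 1, 1, 1 and 0 as lower. The summed level of 10 macrophage markers, all of them tested and none a member, ran from 291.2 to 291.9 CPM in wild type and 350.5 to 358.9 in mutants at 0 dpci, and 798.2 to 804.6 and 919.1 to 950.7 at 2 dpci. The sums were 1279 to 1303 and 1488 to 1523 at 7 dpci and 342.9 to 347.4 and 625.9 to 647.0 at 21 dpci. Of the 10, 2, 2, 3 and 6 passed as higher in mutants at the 4 stages and 1, 1, 0 and 0 as lower. The 8 neutrophil markers summed to 53.8 to 55.5 CPM in wild type and 79.9 to 83.8 in mutants at 0 dpci, 113.3 to 119.1 and 168.7 to 168.8 at 7 dpci and 49.9 to 50.8 and 71.4 to 76.5 at 21 dpci. At 2 dpci the sums were 248.6 to 250.1 CPM in wild type and 221.6 to 224.5 in mutants, the reverse order. Of these 8 markers, 5, 0, 5 and 5 passed as higher in mutants at 0, 2, 7 and 21 dpci. As lower passed 1, 1, 0 and 1. Their median log2 fold change at 2 dpci was 0.11, so the reverse order of the sum was not that of the median. No marker of either list was at 0 in every sample. Of the 5 B cell markers tested, 1, 0, 5 and 1 passed as higher in mutants at the 4 stages and 1, 1, 0 and 0 as lower. At 7 dpci the B cell list summed to 7.38 to 8.88 CPM in wild type and 20.8 to 22.8 in mutants. At 2 dpci the order was the reverse, 6.74 to 6.75 CPM in wild type and 3.33 to 3.90 in mutants. The median log2 fold change of the B cell markers was -0.68 at 2 dpci and 1.49 at 7 dpci. The class also has genes known from liver (saa and masp1), and the 6 liver markers summed to 40.3 to 44.9 CPM in wild type and 74.4 to 74.9 in mutants at 0 dpci and 104.4 to 107.8 and 119.9 to 123.8 at 2 dpci. These sums were 193.7 to 197.9 and 387.3 to 394.5 at 7 dpci and 44.8 to 48.8 and 96.5 to 102.8 at 21 dpci, higher in mutants at each stage. Nearly all of that was tfa (transferrin), the one liver marker with enough counts to be tested, which passed as higher at 0, 7 and 21 dpci. The other 5, among them fabp10a and serpina1, had at most 12 counts in any sample. The part of any of these cell types in the members' difference was not tested. Of 77 other tested peptidase and serpin genes (the members among them were mmp17a and serpinb1l1), 10, 15, 11 and 16 passed as higher and 9, 5, 7 and 5 as lower at the 4 stages.

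Amino acid and one-carbon metabolism gave 11 members. Among them are transporters (slc7a11 exchanges cystine for glutamate, slc7a5 and slc43a2b carry large neutral amino acids, slc6a15 neutral amino acids). Enzymes of the class include phgdh, the entry enzyme of serine synthesis, mthfd1l of mitochondrial folate metabolism, bcat1, which transfers the amino group of branched-chain amino acids, and kmo and aldh8a1 of tryptophan breakdown. 8 of 11 rose from 0 to 2 dpci in wild type and 9 in mutants (22.9% and 24.4% of all genes tested). The class median change was 2.6 and 1.83 on the log2 scale, where the median of all genes was 0.02 and 0.00. The fall was early: 6 in wild type and 7 in mutants fell from 2 to 7 dpci (11% and 10.5% of all genes tested), and 7 and 8 from 7 to 21 dpci (20.5% and 17%). dmgdh, dimethylglycine dehydrogenase, went the other way in wild type, lower at 2 dpci than at 0 dpci, a call lost under column totals and without either of 2 samples, and higher again at 7 dpci. The mean was highest at 2 dpci for 9 of the 11 in wild type and 7 in mutants (29.4% and 31.3% of all genes tested). slc43a2b had the largest change between stages of any member in wild type, where it read 2.65 and 3.64 CPM uninjured, 65.2 and 64.1 at 2 dpci, 13.3 and 11 at 7 dpci and 2.9 and 2.92 at 21 dpci. In mutants slc43a2b read 6.17 and 4.58 CPM uninjured, 116 and 109.8 at 2 dpci, 21.2 and 18.8 at 7 dpci and 13 and 12.9 at 21 dpci. The rise by 2 dpci was 4.36 in wild type (SE 0.11) and 4.39 in mutants (SE 0.09) on the log2 scale. The size of the wild-type rise chose slc43a2b for a full description, so that rise is a description. At 21 dpci the mutants were still above their uninjured level (log2 change 1.27, SE 0.13, adjusted p = 8.92e-14), and wild type did not pass (log2 change -0.11, SE 0.20, adjusted p = 0.703). The log2 fold changes of the genotypes for slc43a2b were 0.78, 0.80, 0.75 and 2.15 at 0, 2, 7 and 21 dpci (SE 0.07 to 0.16). slc43a2a, the other gene of the pair, passed as higher in mutants only at 0 dpci (log2 fold change 0.70, adjusted p = 3.09e-13) and stood at -0.50, -0.48 and 0.00 later.

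slc7a11, which feeds cystine into glutathione synthesis, was at 0.248 and 0.171 CPM uninjured, 3.22 and 2.88 at 2 dpci, 0.592 and 0.84 at 7 dpci and 0.422 and 0 at 21 dpci in wild type. Mutant samples had slc7a11 at 0.997 and 1.07 CPM uninjured, 6.93 and 5.8 at 2 dpci, 2.94 and 2.66 at 7 dpci and 0.644 and 0.506 at 21 dpci. It rose by 2 dpci and fell by 7 dpci in both genotypes (log2 change 3.82, SE 0.42, adjusted p = 1.51e-12 in wild type and log2 change 2.61, SE 0.30, adjusted p = 3.14e-12 in mutants for the rise). slc7a11 was described in full for the size of its wild-type rise, so that rise is a description. The further fall by 21 dpci passed in mutants (log2 change -2.27, SE 0.37, adjusted p = 2.71e-07), and in wild type (log2 change -1.69, SE 0.59, adjusted p = 0.0113) only with sample 2 at 7 and at 21 dpci both kept. bcat1 did not follow the injury course of the class. Its wild-type samples were at 0.248 and 0.257 CPM uninjured, 0.37 and 0.308 at 2 dpci, 0.178 and 0.084 at 7 dpci and 0.0527 and 0.119 at 21 dpci. The mutant samples of bcat1 were at 1.57 and 1.12 CPM uninjured, 1.34 and 1.00 at 2 dpci, 1.03 and 1.01 at 7 dpci and 0.595 and 0.506 at 21 dpci, all above every wild-type sample. At 7 dpci 5 wild-type reads stood against 36 mutant reads over both samples (ratio 8.32, 95% exact interval 3.26 to 27.2) and at 21 dpci 3 against 22 (6.56, 1.97 to 34.2). The one call for bcat1 between stages, a fall from 0 to 21 dpci in mutants (log2 change -1.28, SE 0.47, adjusted p = 0.0247), was lost with DESeq2 (log2 change -1.32), without sample 1 at 0 dpci and without either sample at 21 dpci. Among the 305 other tested solute carriers, 52, 27, 16 and 21 passed as higher in mutants and 39, 36, 22 and 30 as lower at 0, 2, 7 and 21 dpci. Their median log2 fold changes were 0.07, 0.04, 0.00 and -0.02, and 6 of the family were members.

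Enzymes and carriers of redox, steroid, lipid and sugar metabolism made up 15 members, with median log2 fold changes of 0.96, 0.86, 1.0 and 1.31. They had no common course. From 0 to 2 dpci 7 higher and 1 lower passed in wild type (22.9% and 19% of all genes tested). In mutants 6 higher and 6 lower passed (24.4% and 20.8%), and 6 and 2 members under column totals. ptgr1, prostaglandin reductase 1, which inactivates leukotrienes and prostaglandins and reduces reactive aldehydes, was the highest of them in read count. It stood at 71 and 68 CPM uninjured, 51.6 and 50.9 at 2 dpci, 56.7 and 50.7 at 7 dpci and 39.5 and 41.2 at 21 dpci in wild type. In mutants ptgr1 stood at 136 and 134 CPM uninjured, 98.7 and 98 at 2 dpci, 102 and 111 at 7 dpci and 110.1 and 105 at 21 dpci. Every mutant sample lay above every wild-type sample. The single call between stages was the fall from 0 to 21 dpci in wild type (log2 change -0.78, SE 0.06, adjusted p = 1.07e-19), and the mutant change was under the fold threshold (log2 change -0.33, SE 0.05, adjusted p = 2.80e-08). Between genotypes the log2 fold changes of ptgr1 were 0.96, 0.94, 1.0 and 1.41 at 0, 2, 7 and 21 dpci (SE 0.05 to 0.06). Members that rose by 2 dpci in both genotypes were slc2a6 (a hexose transporter), cybrd1 (an iron-reducing cytochrome b), galns (a lysosomal sulfatase), lipcb (hepatic lipase), dhrs9 (a retinol dehydrogenase) and b4galt5 (a galactosyltransferase). The liver marker tfa, given above with the leukocyte genes, was higher in mutants as well, and its part in the level of genes known from liver such as lipcb and hsd17b2 was not tested. osbpl6, of the oxysterol-binding proteins, rose in wild type over that step, from 0.537 and 0.513 to 1.8 and 1.49 CPM (log2 change 1.63, SE 0.38, adjusted p = 1.51e-04). It fell in mutants, from 4.18 and 4.53 to 2.39 and 2.35 CPM (log2 change -0.88, SE 0.26, adjusted p = 0.00273), a call lost under column totals. The steroid enzymes srd5a2b (a steroid reductase) and hsd17b2 (a hydroxysteroid dehydrogenase) had no rise in either genotype, and hsd17b2 passed no test. inpp5kb, an inositol phosphatase, had log2 fold changes between genotypes of 0.59, 2.42, 0.95 and 3.77 at 0, 2, 7 and 21 dpci (SE 0.32 to 0.59), with 0.211 and 0.119 CPM in wild type and 2.58 and 2.17 CPM in mutants at 21 dpci. Of 96 other tested detoxification genes, 15, 10, 16 and 13 passed as higher and 14, 23, 9 and 16 as lower at the 4 stages, with medians of 0.12, -0.10, 0.02 and -0.08.

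Ion pumps and channels were 5 members. atp1a3a, the alpha 3 catalytic subunit of the sodium pump, showed the largest uninjured difference of all members. Wild-type samples held atp1a3a at 1.82 and 1.75 CPM uninjured, 9.24 and 9.46 at 2 dpci, 6.28 and 9.58 at 7 dpci and 13.7 and 13.8 at 21 dpci. Mutant samples held atp1a3a at 36.2 and 34.5 CPM uninjured, 31 and 32.8 at 2 dpci, 42 and 42.2 at 7 dpci and 37.9 and 37.2 at 21 dpci. The log2 fold change was 4.3, 1.77, 2.37 and 1.45 at 0, 2, 7 and 21 dpci (SE 0.09 to 0.13), and no mutant sample came down to the highest wild-type sample. Wild type rose from 0 to 2 dpci (log2 change 2.38, SE 0.17, adjusted p = 3.57e-21) and stood higher still at 21 dpci (log2 change 2.94, SE 0.16, adjusted p = 4.76e-27 against 0 dpci). No contrast passed in mutants. The rule that described atp1a3a in full used how its genotype difference varied, so these calls between stages are a description. The partner atp1a3b was far higher in read count, at means of 1190 CPM in wild type and 1224 in mutants at 0 dpci, and stayed under the fold threshold at every stage (log2 fold changes 0.04, -0.30, -0.19 and -0.48). The other 4, atp6ap1a (an accessory subunit of the vacuolar proton pump), scn4ab (a muscle sodium channel), cacna1aa (a P/Q-type calcium channel) and glrba (glycine receptor beta), had their lowest means at 2 dpci in both genotypes. All 4 fell from 0 to 2 dpci in mutants and 3 did in wild type (20.8% and 19% of all genes tested), and under column totals 2 did in each. The call for glrba in mutants was also lost without sample 1 at 0 dpci or either sample at 2 dpci.

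Genes of contraction and the cytoskeleton were 12 members, with the natriuretic peptide gene nppal counted among them. Here the course was mostly downward first. From 0 to 2 dpci 1 higher and 8 lower passed in wild type (22.9% and 19% of all genes tested). In mutants 2 higher and 7 lower passed (24.4% and 20.8%). From that class 6 rose again from 7 to 21 dpci in wild type and 3 in mutants (16.6% and 12.8% of all genes tested). Under column totals 3 and 2 members did. Those that fell by 2 dpci in both genotypes included pdlim5a (a Z-disc protein), mybphb (a myosin-binding protein), fermt1 (a kindlin), citb (a citron kinase), epb41l3a (a membrane skeleton protein) and bfsp2 (a filament protein of the lens), except that under column totals epb41l3a in wild type and pdlim5a in mutants did not pass. myoz1a, a Z-disc protein, passed no test between stages, and tmsb, a thymosin, overlapped between genotypes at 1 or more stages. The median log2 fold change was 1.12, 1.7, 1.35 and 1.09. myl4 encodes an essential myosin light chain that in mammals marks atria and the embryonic heart. It was at 1.36 and 1.93 CPM uninjured, 0.528 and 0.36 at 2 dpci, 1.01 and 0.798 at 7 dpci and 0.369 and 0.775 at 21 dpci in wild type. In mutants myl4 was at 4.94 and 5.31 CPM uninjured, 3.44 and 1.3 at 2 dpci, 3.25 and 3.42 at 7 dpci and 6.93 and 5.92 at 21 dpci. No mutant sample overlapped the wild type at its own stage, but the mutant samples at 2 dpci differed widely. The fall from 0 to 2 dpci in mutants (log2 change -1.15, SE 0.26, adjusted p = 7.23e-05) was lost without sample 2 at 2 dpci. In wild type myl4 fell over the same step (log2 change -1.87, SE 0.41, adjusted p = 6.65e-05). It was still lower at 21 dpci than at 0 dpci (log2 change -1.54, SE 0.40, adjusted p = 0.00106), a call that did not hold without sample 1 at 21 dpci. twf2b, a twinfilin that binds actin monomers, read 46.2 and 50.4 CPM uninjured, 20.4 and 20.1 at 2 dpci, 32.3 and 27.4 at 7 dpci and 36.8 and 35.2 at 21 dpci in wild type. In mutants twf2b read 66.7 and 70.5 CPM uninjured, 67.3 and 61.4 at 2 dpci, 42.2 and 43.2 at 7 dpci and 46.7 and 50.4 at 21 dpci. The fall by 2 dpci passed in wild type (log2 change -1.25, SE 0.07, adjusted p = 3.39e-25) and not in mutants (log2 change -0.09, SE 0.06, adjusted p = 0.181). Mutants fell from 2 to 7 dpci (log2 change -0.59, SE 0.07, adjusted p = 6.17e-12), and the log2 fold changes between genotypes were 0.51, 1.66, 0.53 and 0.43 at 0, 2, 7 and 21 dpci (SE 0.06 to 0.07). twf2b was described in full for how this difference varied. Its calls between stages, passed in one genotype and not in the other, are therefore a description. The partner twf2a passed as lower in mutants at 0 dpci and higher at 21 dpci (log2 fold changes -0.57 and 0.53).

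nppal, a natriuretic peptide gene and not a contractile one, was the one member counted in this class that rose by 2 dpci in both genotypes. Its wild-type samples held 1.32 and 2.01 CPM uninjured, 13.6 and 11.5 at 2 dpci, 10.7 and 10.7 at 7 dpci and 0.791 and 0.239 at 21 dpci. The mutant samples of nppal held 4.03 and 4.77 CPM uninjured, 51.8 and 46.2 at 2 dpci, 38.2 and 42.4 at 7 dpci and 1.19 and 1.31 at 21 dpci. The rise of nppal by 2 dpci was 2.91 in wild type and 3.47 in mutants on the log2 scale (adjusted p = 3.03e-25 and 1.88e-38). nppal was described in full for the size of its wild-type changes between stages, so those changes are a description. At 21 dpci it was below the uninjured level in wild type (log2 change -1.63, SE 0.36, adjusted p = 1.04e-04) and in mutants (log2 change -1.81, SE 0.23, adjusted p = 7.05e-10). At 21 dpci the wild-type samples differed among themselves, and the genotype difference there was 1.23, or 0.66 without sample 2 and 2.36 without sample 1. The summed level of 8 cardiomyocyte markers was lower in mutants at each stage. It was 43140 to 44590 CPM against 46070 to 46680 in wild type at 0 dpci. At 21 dpci it was 41980 to 42540 against 45480 to 45670. The single markers were mixed, and 1, 2, 1 and 1 passed as higher in mutants at the 4 stages. As lower passed 0, 1, 1 and 1. Their median log2 fold changes were 0.16, -0.06, -0.01 and -0.23. The 5 skeletal muscle markers summed to 5645 to 5723 and 6181 to 6460 CPM in mutants and wild type at 0 dpci, and 3722 to 3877 and 3311 to 3349 at 2 dpci. They summed to 4862 to 4866 and 4325 to 4350 at 7 dpci and 4688 to 4792 and 5163 to 5218 at 21 dpci, with tnni2a.4 at 0 in every sample. Nearly all of each sum was ckma, whose lowest count was 55368 and highest 178720. By comparison, actn3b never exceeded 53 counts, mylpfa 37 and tnnt3a 2. These sums thus chiefly give the level of ckma and not that of the other markers listed. Of the 3 skeletal muscle markers tested, 2, 0, 1 and 1 passed as higher in mutants at the 4 stages. As lower passed 0, 1, 0 and 0. The median log2 fold changes of these 3 were 1.097, 0.1643, 0.4872 and 0.01988. The lower sum in mutants at 0 dpci was thus not the direction of the median. The part of skeletal muscle in the members' difference was not tested.

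Adhesion and matrix genes were 10 members, with median log2 fold changes of 0.92, 0.87, 0.90 and 0.90 at the 4 stages. lama5, the alpha 5 chain of basement membrane laminins, was second in mean plain CPM among the members. Wild-type samples held lama5 at 127 and 123 CPM uninjured, 66.8 and 65.3 at 2 dpci, 128 and 125 at 7 dpci and 169.5 and 162 at 21 dpci. Mutant samples held lama5 at 220.3 and 209 CPM uninjured, 101.2 and 101.3 at 2 dpci, 186 and 182 at 7 dpci and 267 and 266 at 21 dpci, above wild type at every stage. It fell by 2 dpci and rose by 7 dpci in both genotypes. In wild type the fall (log2 change -0.92, SE 0.05, adjusted p = 2.20e-29) and the rise (log2 change 0.94, SE 0.05, adjusted p = 8.50e-29) were of like size. The log2 fold changes of lama5 were 0.78, 0.62, 0.54 and 0.68 at 0, 2, 7 and 21 dpci (SE 0.04 to 0.05) and varied least among the members described in full. cdh29, a cadherin, was at 28.5 and 30.4 CPM uninjured, 16.4 and 15.3 at 2 dpci, 23.8 and 21.6 at 7 dpci and 15 and 14.5 at 21 dpci in wild type. In mutants cdh29 was at 72 and 72.3 CPM uninjured, 54.1 and 53.1 at 2 dpci, 59.8 and 56.6 at 7 dpci and 77.2 and 78.9 at 21 dpci. Every mutant sample exceeded every wild-type sample. Wild type ended lower at 21 dpci than at 0 dpci (log2 change -1.0, SE 0.08, adjusted p = 7.69e-18), and no contrast passed in mutants. cdh29 was described in full partly for how its genotype difference varied, so these calls are a description. Its log2 fold changes between genotypes were 1.29, 1.75, 1.37 and 2.4 at 0, 2, 7 and 21 dpci (SE 0.06 to 0.07). thbs2b (a thrombospondin of healing tissue) and ptprfb (a receptor phosphatase) rose from 2 to 7 dpci and fell by 21 dpci in both genotypes, though the rise of ptprfb in mutants (log2 change 0.53, SE 0.10, adjusted p = 1.23e-05) was near the fold threshold and was lost under column totals and with several samples left out. clec3bb (tetranectin) and frem1a (a basement membrane protein) were higher at 21 dpci than at 0 dpci in both genotypes, mmp17a (a membrane metalloproteinase) was lowest at 7 dpci in both, and l1cama (a cell adhesion molecule of neurons) and pcdh1g3 (a protocadherin) passed no test between stages.

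A further 17 members are known mostly from neurons, secretion and receptor signalling. Their courses were mixed. From 0 to 2 dpci 4 higher and 5 lower passed in wild type (22.9% and 19% of all genes tested), and 3 higher and 6 lower in mutants (24.4% and 20.8%). In mutants 9 of 17 had their highest mean in uninjured ventricles and 6 in wild type (26.8% and 23.6% of all genes tested). pclob, a piccolo of the presynaptic active zone, was described in full for how its genotype difference varied, by a rule that used that difference, so no test of it is given. Wild-type samples of pclob gave 17.2 and 19.5 CPM uninjured, 11.8 and 12.4 at 2 dpci, 8.94 and 7.94 at 7 dpci and 42.6 and 41.6 at 21 dpci. Mutant samples of pclob gave 87.5 and 77.9 CPM uninjured, 19.6 and 21.2 at 2 dpci, 40 and 39.3 at 7 dpci and 62.8 and 61.1 at 21 dpci. Mutants had their low at 2 dpci, after a fall (log2 change -2.01, SE 0.07). The wild-type low was at 7 dpci, followed by a rise to 21 dpci (log2 change 2.33, SE 0.09). Both changes are part of how the genotype difference varied, so they too are given without a test. The log2 fold change of the genotypes was therefore large at 0 and 7 dpci and small at 2 and 21 dpci, 2.17, 0.76, 2.24 and 0.56 at 0, 2, 7 and 21 dpci (SE 0.07 to 0.10). rapgef4, an exchange factor switched on by cyclic AMP, showed the same alternation in its log2 fold changes, 2.3, 0.65, 2.21 and 0.49 at 0, 2, 7 and 21 dpci (SE 0.28 to 0.33). Of receptors, adrb2b (a beta-2 adrenergic receptor) fell by 2 dpci in wild type (log2 change -1.02, SE 0.23, adjusted p = 8.00e-05) and was under the fold threshold in mutants (log2 change -0.41, SE 0.17, adjusted p = 0.0347). The p75 neurotrophin receptor gene ngfra fell in both, in mutants not under column totals. Of genes of vesicle release, stxbp1a rose by 2 dpci in both genotypes (in mutants not without sample 2 at 0 dpci or sample 1 at 2 dpci), rims1a fell by 2 dpci and rose by 21 dpci in mutants, and napgb was lower at 21 dpci than at 0 dpci in wild type, though not with DESeq2 or without any one of 3 samples. grid2ipa and pak7 passed no test between stages in either genotype.

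The 17 members of the nucleus and cell division included zinc finger genes of families specific to fish (znfl1, znfl1h, znfl1k, znf1050, znf1104, znf1107 and znf1115), whose close copies make their counts uncertain. Other members of the class were cenpo (a centromere protein), nup54 (a nuclear pore protein, with no call between stages) and zbtb7b (a transcription factor that rose by 2 dpci and fell by 21 dpci in both genotypes). In mutants 11 of the 17 were highest in uninjured ventricles and 4 in wild type (26.8% and 23.6% of all genes tested). asb8, a subunit of ubiquitin ligases, was at 14.2 and 12.9 CPM uninjured, 17.1 and 18.8 at 2 dpci, 16 and 15.8 at 7 dpci and 25.5 and 24.5 at 21 dpci in wild type. In mutants asb8 was at 47.8 and 46.4 CPM uninjured, 28.1 and 23.9 at 2 dpci, 37.3 and 34.3 at 7 dpci and 41.5 and 38.4 at 21 dpci. Mutants fell from 0 to 2 dpci (log2 change -0.86, SE 0.08, adjusted p = 1.75e-16). Wild type rose from 7 to 21 dpci (log2 change 0.65, SE 0.09, adjusted p = 2.90e-09), and both calls were lost under column totals. A varying genotype difference chose asb8 for a full description, so both calls are a description. For asb8 the log2 fold changes between genotypes were 1.79, 0.53, 1.18 and 0.68 at 0, 2, 7 and 21 dpci (SE 0.08 to 0.09). znf1107 was at 1.69 and 1.46 CPM uninjured, 0.159 and 0.0514 at 2 dpci, 1.24 and 1.43 at 7 dpci and 0.474 and 0.477 at 21 dpci in wild type. In mutants znf1107 was at 2.66 and 2.68 CPM uninjured, 1.98 and 1.25 at 2 dpci, 1.75 and 3.36 at 7 dpci and 2.33 and 2.73 at 21 dpci. At 2 dpci the wild type held 4 reads over both samples against 59 in mutants (ratio 15.2, 95% exact interval 5.64 to 57.7), after a fall that passed (log2 change -3.84, SE 0.57, adjusted p = 1.37e-08). The size of that fall chose znf1107 for a full description, so it is a description. cenpo, by contrast, rose with injury, from 0.124 and 0.0428 CPM to 1.0 and 1.54 at 2 dpci, 0.888 and 0.546 at 7 dpci and 0.58 and 0.358 at 21 dpci in wild type. Mutant samples of cenpo were at 0.854 and 0.585 CPM uninjured, 2.45 and 2.55 at 2 dpci, 1.91 and 2.41 at 7 dpci and 1.93 and 1.57 at 21 dpci. The rise by 2 dpci passed in wild type (log2 change 3.83, SE 0.60, adjusted p = 7.42e-08) and in mutants (log2 change 1.79, SE 0.37, adjusted p = 2.13e-05). cenpo was described in full for the size of its wild-type rise, so that rise is a description. At 0 dpci the ratio of 30 to 4 reads, 8.58 after scaling, had a 95% exact interval of 3.02 to 33.5.

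The last 7 members fitted none of these classes. Of them, slc35f3a, a thiamine transporter in mammals, had a log2 fold change of 4.09 at 0 dpci and 0.57 at 21 dpci. Wild type rose over that time from 0.124 and 0.385 to 1.21 and 1.31 CPM (log2 change 2.29, SE 0.49, adjusted p = 7.53e-05) and mutants fell from 4.03 and 4.77 to 1.78 and 1.97 CPM (log2 change -1.23, SE 0.28, adjusted p = 2.45e-04). ptpn13, a tyrosine phosphatase, rose from 2 to 7 dpci in wild type (log2 change 0.61, SE 0.07, adjusted p = 4.21e-11) and passed no test in mutants. The lens crystallin gene cryba1a passed no test between stages in either genotype and unm_sa911 rose by 2 dpci and fell by 21 dpci in both. loxhd1b and tmprss15, an intestinal serine protease in mammals, fell by 2 dpci in both genotypes, loxhd1b in wild type and tmprss15 in mutants not under column totals. The mean of luzp2 was highest at 7 dpci in both.

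**Figure D4:**
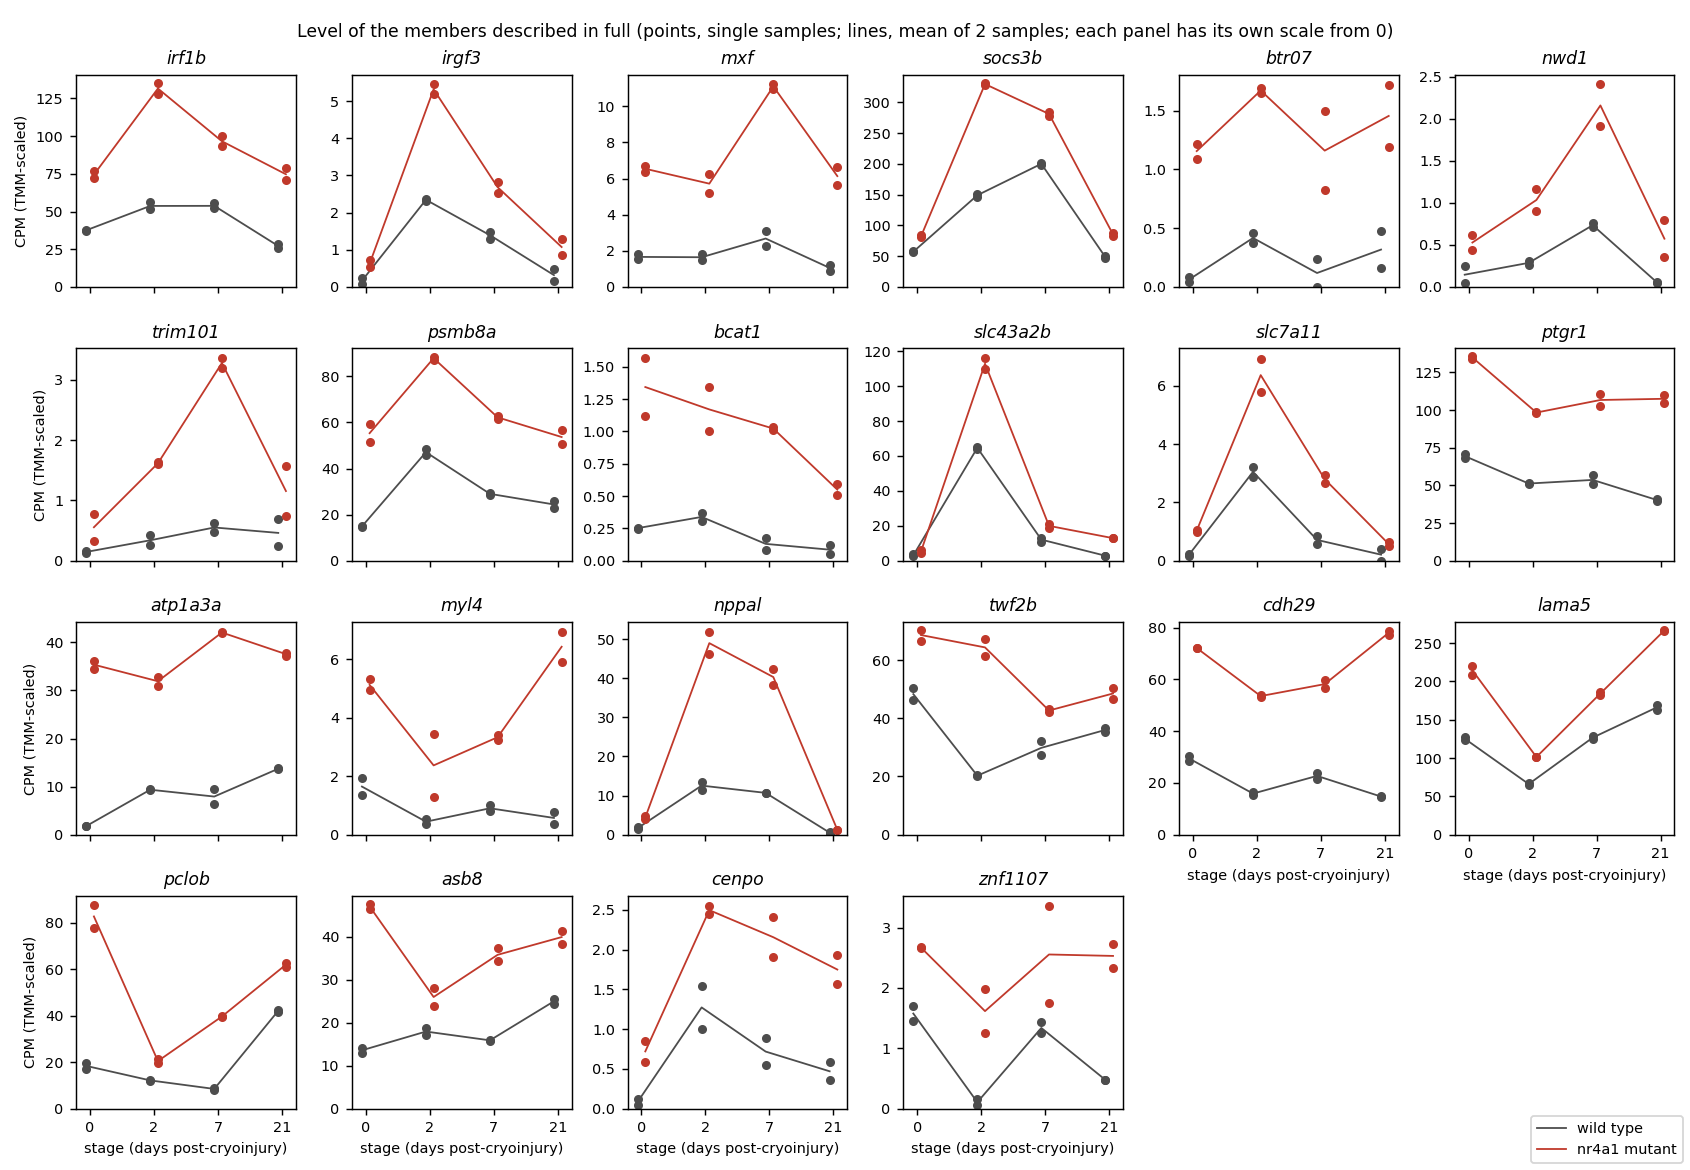
Level (CPM scaled with TMM factors, vertical axis, each panel from 0 on its own scale) of the 22 members described in full at the 4 stages, evenly spaced on the horizontal axis. Points are single samples, 2 per condition, lines join the means, grey is wild type and red nr4a1 mutants. In these 22 members both red points lie above both grey points at every stage. The shapes differ: slc43a2b, slc7a11 and irgf3 peak at 2 dpci in both genotypes, and atp1a3a rises in wild type and stays level in mutants.

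By the interaction coefficients of edgeR, 56 of the 134 members passed for a change of the genotype difference between stages, as did 52.8% of all genes tested. The choice used the ratios of every stage and so bore on this count, and nothing is read from it. The difference was largest at 0 dpci in 57 members, at 2 dpci in 20, at 7 dpci in 23 and at 21 dpci in 34. It was smallest at 0 dpci in 22, at 2 dpci in 42, at 7 dpci in 37 and at 21 dpci in 33. The shares of all genes by such stages are not given, so nothing particular to the members is read from these counts.

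Zebrafish keep many pairs of duplicated genes whose symbols differ in a last a or b, which allows a look at genes like the members that the choice left out. Of the members' partners by symbol, 34 were tested and none was a member or met the ratio. For a few symbols, such as cybb and cyba (both subunits of the same oxidase) or tnfrsf11b and tnfrsf11a (osteoprotegerin and the receptor RANK), the letters name different genes and not duplicates. As higher in mutants, 6, 8, 6 and 7 of the 34 passed at 0, 2, 7 and 21 dpci (17.6%, 23.5%, 17.6% and 20.6%). Of all genes tested, 11.9%, 8.35%, 7.03% and 9.49% did so. As lower, 3, 1, 0 and 0 partners passed. cacna1ab, a calcium channel like cacna1aa, passed at 2, 7 and 21 dpci (log2 fold changes 1.18, 0.67 and 1.6), and socs1a, partner of the cytokine inhibitor socs1b, at 2 and 21 dpci (0.52 and 1.0). tnfrsf11a passed as lower at 0 dpci (-0.69) and as higher at 2, 7 and 21 dpci (0.63, 0.86 and 1.14). These partners were named after their values were seen. No partner passed at all 4 stages.

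Gene order was taken from a RefSeq table of GRCz12tu, a later assembly than the GRCz11 build of the counts, in which 123 of the 134 members were found. Of these, 11 lie on the chromosome of nr4a1 (8.94%, against 3.87% of all genes tested and found there). Nearest to nr4a1 were csrnp2, a nuclear factor with 11 tested genes between, aldh8a1 with 15 and hmgn3, a nucleosome-binding protein, with 24. Further off on the same chromosome, with 61 to 371 tested genes between, lay l1cama, cbln4, asb8, cyp2aa2, trim101, lama5, atp6ap1a and b4galt5. csrnp2 was at 3.72 and 3.12 CPM uninjured, 2.17 and 1.34 at 2 dpci, 3.97 and 3.19 at 7 dpci and 4.27 and 4.71 at 21 dpci in wild type. In mutants csrnp2 was at 12.9 and 12.4 CPM uninjured, 3.9 and 4.05 at 2 dpci, 6.44 and 5.76 at 7 dpci and 6.89 and 5.41 at 21 dpci. Its samples did not overlap between genotypes at any stage, with log2 fold changes of 1.89, 1.19, 0.79 and 0.46 at 0, 2, 7 and 21 dpci (SE 0.17 to 0.24). Linkage to the mutated locus cannot be told apart from an effect of the mutation in a comparison of 1 mutant line with wild type. Counted next were the 236 genes that lie directly beside a member and are not members. They passed as higher in 16.1%, 10.6%, 9.32% and 12.7% at 0, 2, 7 and 21 dpci. All genes tested did so in 11.9%, 8.35%, 7.03% and 9.49%. As lower, these neighbours passed in 8.05%, 9.32%, 4.24% and 7.2%, against 11.8%, 8.5%, 5.94% and 6.83% of all genes. 5 of these neighbours passed at all 4 stages. Of all genes tested, 0.697% passed as higher at all 4. The share that passed as lower at all 4 is not given, so nothing is read from this count. zgc:136930 (beside bfsp2) and zmp:0000000527 (beside unm_sa911) passed as higher, and both met the ratio and were left out for the colon in the symbol. Passing as lower were gsdf (beside nup54), ptger4a (beside loxhd1b) and tnnc1a (beside atp6ap1a). tnnc1a encodes a cardiac troponin C, and its log2 fold changes were -1.22, -1.15, -1.02 and -0.98, while those of atp6ap1a beside it were 1.12, 1.53, 1.98 and 1.32.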

How the data were processed

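RNA of zebrafish ventricles was sequenced by the study on an Illumina platform. Per the submitters' processing notes and the methods, the authors checked reads with FastQC, aligned them with STAR to GRCz11 (danRer11) and deposited raw counts per gene from featureCounts, without normalization. Annotation, strand setting, handling of multiply mapped reads, the number of fish per sample and the batches the authors adjusted for are not given in the sources used here.

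The members were taken with plain CPM (count over column total), mean at least 0.5, offset 0.1 and ratio 1.41. Members, gene lists, function classes and marker lists were chosen with earlier results of these data known. Tests used edgeR 4.0.16 (R 4.3.3): a gene entered with 10 or more counts in 2 or more samples, TMM factors, 1 coefficient for each of 8 conditions over all 16 samples, the quasi-likelihood test and Benjamini-Hochberg adjustment over 18949 genes, with calls past 0.5 on the log2 scale in either direction and an adjusted p under 0.05. The change of the genotype difference is an F-test of 3 interaction coefficients. Alternatives were DESeq2 1.42.0, its size factors in edgeR, no filter on counts, a replicate block, a log2 threshold of 1, each sample left out in turn, and column totals alone.

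Described in full were the 8 members with the highest lowest ratio, the 6 with the highest mean CPM, the 6 called with the largest change over time in wild type, and the 6 with the smallest p for a changing genotype difference. Library totals were 14333475 to 27668498 counts. Samples of a condition differed beyond sampling noise (chi-square per degree of freedom 1.61 to 2.58), so no pair was counted as 1 library, which does not show that the samples are biological replicates. No genome sequence was used. Python 3.11.15 with pandas 2.3.3 handled the tables.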

Additional observations from a re-analysis of the deposited data

Results flagged for a closer look

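By the interaction coefficients of edgeR, 56 members passed for a change of the genotype difference between stages, and 13 of the members described in full were among them. The choice of members used the ratios of the same samples, and some were described in full for a small p here, so this picked them out and is not evidence of a difference. The distance between the highest and the lowest log2 fold change over the 4 stages was 3.1 for znf1107, 2.85 for atp1a3a, 1.87 for myl4, 1.69 for pclob, 1.41 for slc43a2b, 1.26 for asb8, 1.24 for twf2b and 1.11 for cdh29. It was smaller for psmb8a (0.993), socs3b (0.654), irf1b (0.605), ptgr1 (0.473) and lama5 (0.234). All of these stayed above 0 at each stage because the members were selected that way, so the values describe how far the difference varied and not where it lay. With 2 samples in a condition, no sample could be tested for standing apart from the rest of its group.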

How the results depend on the processing

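Among the alternatives to the choice of members, requiring an edgeR call at every stage left 65 members, while TMM-scaled CPM left 111, an offset of 0.5 left 97, a minimum of 1 CPM left 117, non-overlapping samples left 127 and leaving out 1 sample gave 132 to 143. With a log2 change over 1, counts of members fell in wild type to 19 lower (0 to 2 dpci), 9 higher and 10 lower (2 to 7), 12 higher (7 to 21) and 12 higher and 10 lower (0 to 21), and in mutants to 22 lower (0 to 2), 8 higher and 8 lower (2 to 7), 2 higher and 34 lower (7 to 21) and 7 lower (0 to 21). Under column totals with no TMM factors, tried after the data were seen, 12 members rose from 7 to 21 dpci in wild type, and in mutants 24 fell from 0 to 2, 4 rose from 7 to 21 and 19 rose from 0 to 21. The shares of all genes at the threshold of 1 and under column totals are not given, so nothing is read from these counts. With 2 neighbours on each side of a member, 12.8% were lower at 0 dpci. Leaving out 1 sample moved the wild-type count lower at 21 than at 0 dpci between 11 and 18. The cause was not tested.

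A replicate block was fitted as an alternative because conditions share sample numbers, but same-numbered samples did not deviate together (correlation -0.0307 to 0.0321 over 28 pairs of conditions), so the numbers do not pair the samples. In the paired fit the members with a changing genotype difference numbered 56, as without it, and of the calls of members described in full only the fall of btr07 from 2 to 7 dpci in wild type was lost. DESeq2 gave 45 such members. Apart from the counts given here and in the paragraph above, every count of members called stayed within 1.5 times of its value under the alternatives. One call between stages changed sign, the rise of kmo from 0 to 21 dpci in wild type, at -0.035 on the log2 scale without wild-type sample 1 at 21 dpci, and that call was lost under most alternatives. Depth limits the 49 members under 2 CPM, and 8 members had at most 3 counts in each sample of a condition. The search for motifs in promoters was not run, as no promoter sequences were used here.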
